A study of Mus musculus with 6 samples.

Results

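Fyb and 8 partners in T cell receptor signalling (Lat, Lcp2, Skap1, Vav1, Zap70, Lck, Grap2 and Themis) were followed in mouse T cell acute lymphoblastic leukemia (T-ALL) cells, with and without Klf4. Every probe that the array's annotation assigns to one of these symbols was taken, which gave 20 of the 45281 probes on the array. They cover 8 of the 9 genes. No probe carried the symbol Lck, so Lck was not analysed here. Fyb was selected on its measured log2 difference between the Klf4-deficient and control arrays, and its signalling partners were added around it, so the group differences of the 9 genes are given as a description, without a test.

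Leukemia had been driven by NOTCH1 in mice, and GFP+ cells that carried both CD4 and CD8 were sorted from the bone marrow 4 weeks after transplantation. The control group holds 3 arrays (labelled wild type) and the Klf4-deficient group 3 arrays (labelled knockout), all from male mice and all with NOTCH1-induced T-ALL. The labels used here do not give the strain, the age, the way Klf4 was deleted, or whether the samples of a group came from separate animals, so the spread between arrays may be technical. Each sample's total RNA was hybridised to its own Illumina bead array, and precision is limited by having 3 arrays a group.

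The T cell receptor has no enzyme activity of its own. Lck phosphorylates its CD3 and zeta chains, Zap70 docks there and phosphorylates the scaffolds Lat and Lcp2 (SLP-76), and Grap2 (Gads) links these scaffolds to each other. Vav1 is a guanine nucleotide exchange factor recruited to Lcp2, Themis is a thymocyte adaptor that binds the Grb2 adaptor, and Fyb (ADAP) with its partner Skap1 (SKAP55) connects the complex to integrin activation. Fyb is also made in myeloid cells and platelets, where the same integrin route operates.

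The sequence before the transcription start of Fyb, the gene with the largest difference among the 8 measured, is shown beside that of Vav1, whose groups overlapped. Both are the 250 bases before a RefSeq start on GRCm38.p6, at chr15:6579597-6579846 (plus strand) for Fyb and chr17:57278850-57279099 (plus strand) for Vav1, printed 5′ to 3′. Capitals mark CACCC (reverse strand GGGTG), a core bound by factors of the Klf family, and GGAA (reverse strand TTCC), the core bound by ETS factors. The letters of the 2 motifs can share a base, which did not occur in these windows.
Fyb: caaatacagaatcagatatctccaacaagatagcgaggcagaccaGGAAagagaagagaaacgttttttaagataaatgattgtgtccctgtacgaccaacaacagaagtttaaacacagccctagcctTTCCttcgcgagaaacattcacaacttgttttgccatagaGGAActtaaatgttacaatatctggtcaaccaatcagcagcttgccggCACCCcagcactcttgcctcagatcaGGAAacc
Vav1: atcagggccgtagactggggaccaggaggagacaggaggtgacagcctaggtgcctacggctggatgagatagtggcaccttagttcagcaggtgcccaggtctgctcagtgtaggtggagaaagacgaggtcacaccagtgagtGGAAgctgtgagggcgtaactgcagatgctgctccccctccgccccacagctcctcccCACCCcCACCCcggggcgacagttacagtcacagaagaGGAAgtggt

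The Fyb window held 1 match to CACCC, which starts 33 bases before the transcription start, and 4 matches to GGAA. The Vav1 window held 2 matches to each motif. RefSeq windows matched 8 of the 9 genes, here with Lck and without Skap1. There were 12 starts in all, of which 9 held CACCC and 11 held GGAA. Some genes had several starts, and the Themis windows overlap each other. By gene, 6 of the 8 held CACCC in some window and all 8 held GGAA. Among 32851 windows of the same length, CACCC was found in 52.0% and GGAA in 93.4%. These shares are per window, so they do not match the counts by gene, which pool several windows for some genes. A match is a description of letters, and binding was not measured here.

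Of the 20 probes, 18 were above background on all 6 arrays, where the limit on an array was 3 SDs of its background. The exceptions were the dimmest Lcp2 probe, above background on 0 of 3 control and 1 of 3 Klf4-deficient arrays, and the dimmest Grap2 probe, above background on none of the 6. In the limma fit, 0 of the 20 probes passed at an adjusted p under 0.05, against 2 of all 45281 probes (0.00442%). Those 2, named after their values were seen, are a Commd10 probe, higher in the Klf4-deficient arrays, and an unnamed probe that was below background throughout. At an unadjusted p under 0.05, 8 of the 20 were counted, against 6.04% of all probes. On the normalized log2 scale 5 of the 20 had all Klf4-deficient arrays above all controls (4.29% of all probes) and 3 had them all below (5.26% of all probes). Nothing is read from these counts, since the contrast was known when the genes were chosen. The median difference of the 18 probes was 0.01, beside -0.02 for all 15173 probes above background on every array. Probes are numbered within a gene from the brightest down, and levels are compared only within a probe.

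Fyb was higher in every Klf4-deficient array than in every control, on both of its probes. Fyb probe 1 gave a signal of 3381, 2590 and 3196 in control arrays 1, 2 and 3, and of 5636, 5427 and 4383 in Klf4-deficient arrays 1, 2 and 3. The lowest Klf4-deficient array thus lay above the highest control. The mean was 3056 ± 414 (SD, n = 3) in the controls against 5149 ± 671 (SD, n = 3) in the Klf4-deficient arrays, a ratio of 1.69 between the mean signals. On the normalized log2 scale the difference was 0.85 ± 0.08 (SE), which is 1.80-fold.

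Fyb probe 2 was annotated to a cDNA entry and not to the RefSeq transcript of probe 1. Its signal was 921, 631 and 857 in the controls and 1301, 1069 and 1164 in the Klf4-deficient arrays, again without overlap. The log2 difference was 0.66 ± 0.17 (SE). Among the 15173 probes above background on every array, the differences of probes 1 and 2 ranked 139 and 236 from the top. Over 14 alternative settings, the difference of probe 1 ran from 0.75 to 0.92 and that of probe 2 from 0.53 to 0.78.

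**Figure D1:**
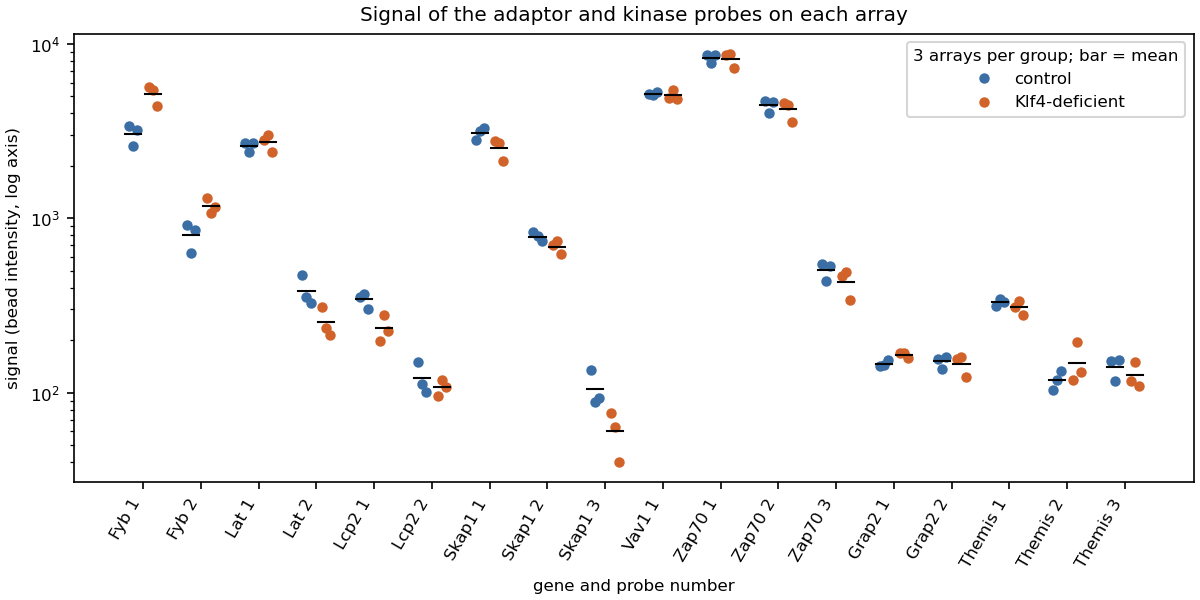
Signal of the 18 probes above background on every array (vertical log axis, bead intensity), by gene and probe number; each point is 1 array, blue for 3 control and orange for 3 Klf4-deficient arrays, and each bar is a group mean. Both Fyb probes have all orange points above all blue ones, and heights of different probes are not comparable.

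Skap1, the adaptor constitutively bound to Fyb in T cells, had lower means in the Klf4-deficient arrays on all 3 of its probes, opposite in sign to Fyb. Skap1 probe 1 gave 2823, 3165 and 3294 in the controls and 2778, 2695 and 2141 in the Klf4-deficient arrays. These signals did not overlap, but the normalized log2 values did, with a difference of -0.18 ± 0.08 (SE). Probe 2 gave 830, 789 and 739 in the controls and 700, 741 and 620 in the Klf4-deficient arrays, with overlap and a difference of -0.09 ± 0.06 (SE).

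Skap1 probe 3, the dimmest, gave 135, 88.5 and 93.0 in the controls and 76.5, 63.6 and 40.2 in the Klf4-deficient arrays. Its groups did not overlap, and the difference was -0.62 ± 0.22 (SE). The 3 Skap1 probes are annotated to the same transcript, yet their differences span from -0.62 to -0.09. Klf4-deficient array 3 was the lowest of the 6 for the signal of each of the 3 probes. Its mean signal over all probes was also the lowest, 359.5 against 417.3 to 445.1 on the others. After normalization, probe 2 on Klf4-deficient array 3 (9.53) lay between control array 3 (9.49) and control array 1 (9.62). Without Klf4-deficient array 3 the differences of probes 1, 2 and 3 were -0.16, -0.10 and -0.45.

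The scaffold genes Lat and Lcp2 gave unlike values on different probes. Lat probe 1 gave 2703, 2414 and 2718 in the controls and 2796, 2998 and 2414 in the Klf4-deficient arrays, so the signals overlapped. After normalization its groups did not overlap, with a log2 difference of 0.17 ± 0.03 (SE), which was 0.06 with no normalization between arrays. Lat probe 2, annotated to a cDNA entry, gave 475, 352 and 326 in the controls and 311, 235 and 214 in the Klf4-deficient arrays. It was lower in every Klf4-deficient array, with a difference of -0.47 ± 0.17 (SE). The probes of this gene therefore had opposite signs, and the table used here does not place them on the transcript.

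Lcp2 probe 1, also annotated to a cDNA entry, gave 355, 369 and 303 in the controls and 198, 280 and 225 in the Klf4-deficient arrays. It was lower in each Klf4-deficient array than in any control, with a difference of -0.43 ± 0.16 (SE). Lcp2 probe 2, annotated to the RefSeq transcript, gave 149, 112 and 101 in the controls and 95.5, 119 and 107 in the Klf4-deficient arrays. Those groups overlapped (-0.07 ± 0.14, SE), so the lower level was seen on 1 of the 2 Lcp2 probes above background.

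Grap2, the adaptor between Lat and Lcp2, gave 142, 143 and 153 on probe 1 in the controls and 169, 168 and 158 in the Klf4-deficient arrays. Its groups did not overlap, and the log2 difference was 0.23 ± 0.06 (SE). Grap2 probe 2, annotated to the same transcript, gave 156, 137 and 160 against 155, 161 and 122, with overlap and a difference of 0.03 ± 0.07 (SE). The size seen on the first Grap2 probe was thus not seen on the second.

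Zap70, the kinase that phosphorylates Lat and Lcp2, differed little between the groups. Its probe 1 gave 8675, 7750 and 8601 in the controls and 8613, 8747 and 7325 in the Klf4-deficient arrays. These signals overlapped, while the normalized log2 values did not (0.09 ± 0.04, SE), and the sign turned with no normalization (-0.02). Probe 2 of Zap70 differed by 0.03 ± 0.05 (SE) and turned sign as well, to as low as -0.08 among the alternatives, and probe 3 differed by -0.13 ± 0.10 (SE). On all 3 the signals of the groups overlapped.

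Vav1 gave 5175, 5112 and 5274 in the controls and 4932, 5418 and 4867 in the Klf4-deficient arrays on its only probe. The control arrays varied by 1.6% (coefficient of variation), the smallest spread among the 18 probes, and lay inside the range of the Klf4-deficient arrays. The log2 difference was 0.07 ± 0.07 (SE), from -0.03 to 0.12 over the alternatives.

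Themis, an adaptor needed for thymocyte selection, gave 316, 346 and 332 on probe 1 in the controls and 311, 337 and 278 in the Klf4-deficient arrays. Its groups overlapped, and the log2 difference was 0.00 ± 0.07 (SE). Probes 2 and 3, annotated to cDNA entries, differed by 0.34 ± 0.19 and -0.08 ± 0.11 (SE), with overlapping groups on each. On probe 2 Klf4-deficient array 2 stood highest, at 196, while the other 5 arrays ran from 104 to 133.

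**Figure D2:**
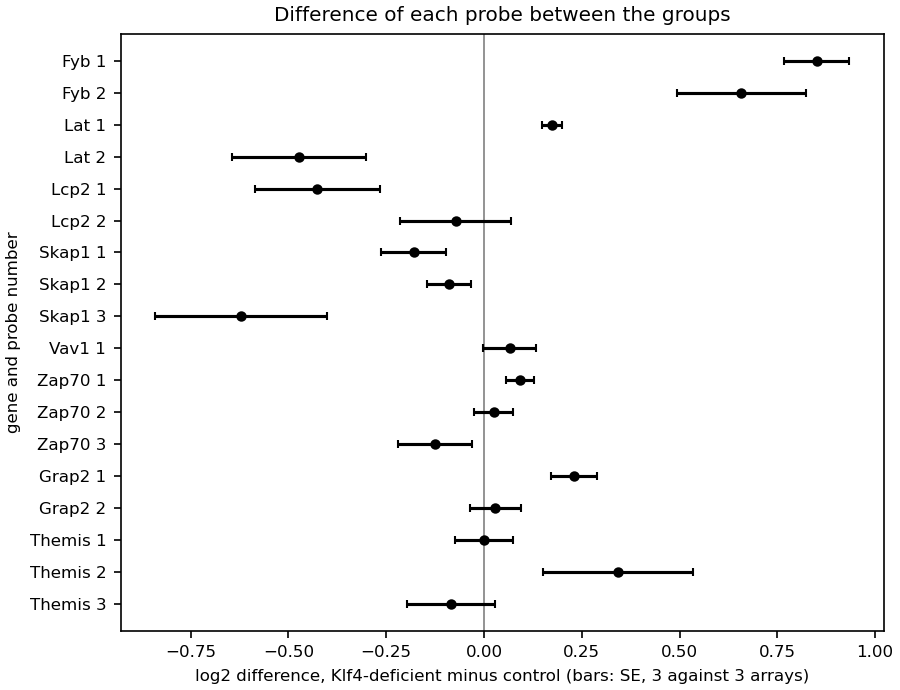
Log2 difference of each of the 18 probes (horizontal axis, Klf4-deficient minus control; bars are SE, 3 against 3 arrays), by gene and probe number (vertical axis). The Fyb probes lie at 0.85 and 0.66, the third Skap1 probe lies lowest at -0.62, and the Lat probes fall on opposite sides of 0.

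The sorted cells carried the markers of double-positive thymocytes: 13 of 15 such markers were above background on every array. Their median log2 difference was -0.09 (3 above 0, 12 below 0). Of the 15, 3 were lower without overlap against 0 higher (6.11% and 5.45% of all genes). Of the 18 probes of the 8 measured genes above background on every array, 8 had a difference below 0 and 10 above 0. Cd4 gave signals of 1044 to 1477 in the controls and 1052 to 1415 in the Klf4-deficient arrays. The brightest Cd8b1 probe gave 28518 to 29424 and 25892 to 26627. These signals did not overlap, but the normalized log2 values did, with a difference of -0.05 ± 0.09 (SE). Cd8a, on the brighter of its 2 probes, gave no more than 34.0 on any array. The brightest of the 3 Klf4 probes gave 18.4 to 44.0 in the controls and 46.0 to 85.4 in the arrays labelled Klf4-deficient, and both remaining Klf4 probes never rose above background. The place of the Klf4 probes relative to the deleted part is not given in the sources used here, so they do not check the labels.

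Markers of other marrow cells were higher in some Klf4-deficient arrays, while Fyb was higher in all 3. Relative to the control mean, the median log2 value of the monocyte and macrophage markers (12 of 14 measured, 6 above background on every array) was 0.44, 0.93 and 1.32 in Klf4-deficient arrays 1, 2 and 3. Fyb probe 1 lay at 0.91, 0.82 and 0.81 and Fyb probe 2 at 0.72, 0.41 and 0.84 in the same arrays. Among these 3 arrays, probe 1 was highest in array 1, where the marker median was lowest. Probe 2 was highest in array 3, where the marker median was highest, and lowest in array 2, where the marker median lay between. Without Klf4-deficient array 3 the differences of Fyb probes 1 and 2 were 0.87 and 0.57.

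All 12 monocyte and macrophage markers had a difference above 0, with a median of 0.85. Of them 8 were higher without overlap against 0 lower (5.45% and 6.11% of all genes). Adgre1, Fcgr1, Cd14 and Marco, among these 8 and named after their values were seen, were below background on every control array. The summed signal of the 12 markers was 3768 to 5091 in the controls and 4616, 4968 and 11342 in Klf4-deficient arrays 1, 2 and 3. It consists largely of Lyz2, named after its values were seen. Lyz2 gave 2858 to 4143 in the controls and 3552, 3130 and 9308 in Klf4-deficient arrays 1, 2 and 3, with overlap. Csf1r, the receptor that defines this lineage, gave 20.8 to 39.5 and 57.8 to 128. The erythroid markers (11 of 14 measured) had a median difference of 1.21, with 10 above 0 and 1 below. Slc4a1, the anion exchanger of red cells, had a mean signal of 1747 in the controls and 5582 in the Klf4-deficient arrays. It gave 1001 to 2381 in the controls and 2218, 5392 and 9136 in Klf4-deficient arrays 1, 2 and 3, with overlap. The means of Alas2, the first enzyme of heme synthesis in red cells, were 975 and 2866. Its signals, 651 to 1322 in the controls and 1309, 2273 and 5015 in Klf4-deficient arrays 1, 2 and 3, overlapped. Its normalized log2 values did not. The erythroid sum, 33360 to 40939 and 40492 to 55977, consists largely of Hba-a1, an alpha globin (mean 33519 and 38385).

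The NK and cytotoxic markers (13 of 14, of which 6 were never above background) had a median difference of 0.27, with 8 above 0 and 5 below. Without overlap, 4 of them were higher against 0 lower (5.45% and 6.11% of all genes). These were Klrd1 (1.33 ± 0.34, SE, below background in all 3 controls), Ctsw (0.91 ± 0.24), Ccl5 (1.36 ± 0.38) and Nkg7 (0.95 ± 0.36). Klrb1c, a receptor of NK cells, gave 22.6 to 26.9 in the controls and 10.8 to 52.9 in the Klf4-deficient arrays. The summed signal of the list was 2185 to 3144 and 2685 to 3571. Its largest part was Prf1, named after its values were seen, with a mean of 1891 in the controls and 1520 in the Klf4-deficient arrays. The Prf1 groups overlapped, with a difference of -0.18 ± 0.24 (SE).

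The neutrophil markers (13 of 14) had a median difference of 0.28 and summed to 74469 to 103801 and 75847 to 143119. Their median log2 value minus the control mean was -0.20, -0.06 and 1.41 in Klf4-deficient arrays 1, 2 and 3. Elane, a neutrophil protease, gave 1976 to 2591 in the controls and 1853 to 5113 in the Klf4-deficient arrays, highest in array 3. The megakaryocyte markers (10 of 12, of which 8 were never above background) had a median difference of 0.11 (5 above 0, 5 below 0). They summed to 85 to 130 and 113 to 168. Among them Pf4, the platelet chemokine, never rose above background, while Gp9 and Itga2b, chains of platelet receptors, were above background on all 6 arrays. Gp9 gave 26.4 to 40.1 and 37.1 to 42.1, and Itga2b 30.3 to 38.8 and 31.8 to 70.6. The B lineage markers (10 of 12) had a median of 0.05 and summed to 840 to 1037 and 650 to 950. The part of other cells in the differences of Fyb, Skap1, Lat and Lcp2 was not tested. In these bulk samples fewer cells of a type and less RNA per cell cannot be told apart.

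**Figure D3:**
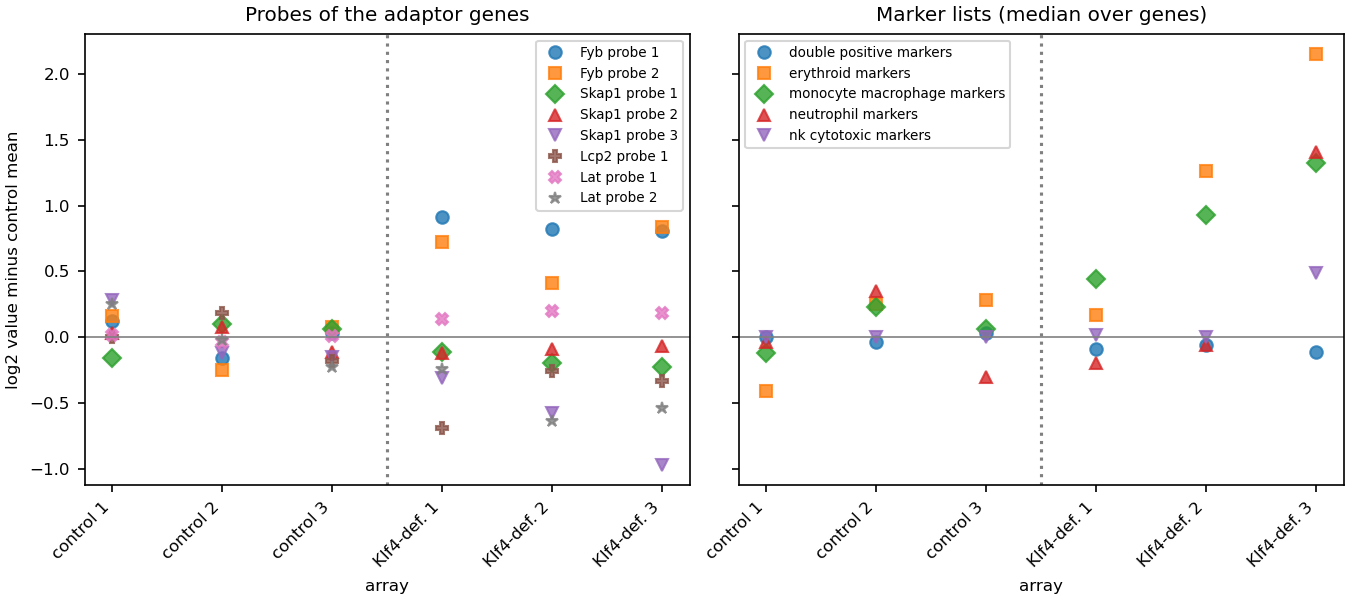
Log2 value minus the control mean (vertical axis) on each of the 6 arrays (horizontal axis), for probes of Fyb, Skap1, Lcp2 and Lat on the left and for the median of marker lists on the right. Fyb probe 1 is at 0.91, 0.82 and 0.81 in Klf4-deficient arrays 1, 2 and 3, while the erythroid markers are at 0.17, 1.26 and 2.15.

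Other genes that act at the receptor beside the 9 gave no call. Of 22 measured regulators (kinases, phosphatases, ubiquitin ligases and small adaptors), 0 passed at the adjusted threshold in limma in either direction, against 0.00525% of all 19057 genes, each represented by its brightest probe. At an unadjusted p under 0.05, 1 was higher and 1 lower, against 3.46% and 4.13% of all genes. The median difference was -0.04 (10 above 0, 12 below 0), beside 0.00 for all genes, and it turned to 0.01 with probes averaged per gene.

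Trat1, an adaptor that stabilises receptor complexes, gave 3354, 3176 and 3826 in the controls and 2745, 2948 and 2331 in the Klf4-deficient arrays. These groups did not overlap, and the difference was -0.26 ± 0.06 (SE, adjusted p = 0.590 over all probes, limma). Lime1, a membrane adaptor that binds Lck and Csk, differed by 0.27 ± 0.09 (adjusted p = 0.749, limma). Ptpn6, the phosphatase SHP-1, differed by 0.22 ± 0.09, and Cblb, a ubiquitin ligase that restrains activation, by -0.27 ± 0.17 (adjusted p = 0.824 for both, limma).

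Downstream of the adaptors, 25 measured effectors of calcium, Ras and NF-kappaB signalling had a median difference of 0.01, with 0 calls after adjustment in limma. The median turned to -0.05 without control array 1, to -0.02 without Klf4-deficient array 2 and to -0.03 without Klf4-deficient array 3. At an unadjusted p under 0.05, 2 were higher and 3 lower (3.46% and 4.13% of all genes). Stim1, the calcium sensor of the endoplasmic reticulum, gave 913, 881 and 956 in the controls and 1039, 1129 and 856 in the Klf4-deficient arrays. Its signals overlapped, and the normalized difference was 0.23 ± 0.04 (SE, adjusted p = 0.502, limma). Orai1, the channel that Stim1 opens and the other gene on the higher side, was named after its values were seen. It gave 313, 301 and 249 in the controls and 368, 400 and 533 in the Klf4-deficient arrays, without overlap and with Klf4-deficient array 3 the highest (0.65 ± 0.24, adjusted p = 0.806, limma).

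On the lower side, Nck2, an adaptor that binds Lcp2 and acts on actin, gave 1107, 901 and 1100 in the controls and 895, 845 and 606 in the Klf4-deficient arrays (-0.31 ± 0.10, SE, adjusted p = 0.749, limma). The highest Nck2 signal in the Klf4-deficient arrays was below the lowest control. Bcl10, an adaptor of NF-kappaB signalling, differed by -0.07 ± 0.02 (adjusted p = 0.686, limma). Ppp3cb, a catalytic subunit of calcineurin, differed by -0.13 ± 0.05 (adjusted p = 0.806, limma).

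The integrin route to which Fyb and Skap1 connect had a median difference of -0.04 over 17 measured genes (6 above 0, 11 below 0). In limma 0 passed after adjustment, while 1 was lower and 0 were higher at an unadjusted p under 0.05 (4.13% and 3.46% of all genes), a share near that of all genes. That gene, Itga4, the alpha chain of the VLA-4 integrin, gave 111, 88.1 and 118 in the controls and 63.0, 72.2 and 73.2 in the Klf4-deficient arrays. Its groups did not overlap, and the difference was -0.43 ± 0.11 (SE, adjusted p = 0.639, limma). Vasp and Evl, actin regulators of the family that Fyb binds, differed by -0.42 ± 0.21 and 0.22 ± 0.12, and Rapgef1, an exchange factor of Rap1, by -0.12 ± 0.06 (adjusted p = 0.824 for the 3, limma).

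Paralogues and other relatives of the 9 genes, several of them used mainly in myeloid or B cells, were also read. Of 13 measured, 6 were above background on every array, limma gave 0 calls after adjustment, and without adjustment (p under 0.05) 1 was higher and 0 were lower (3.46% and 4.13% of all genes). The median difference was 0.08, and 0.00 without Klf4-deficient array 3. Lat2, the Lat relative of B and myeloid cells, gave 253, 253 and 232 in the controls and 258, 329 and 314 in the Klf4-deficient arrays (0.38 ± 0.14, SE, adjusted p = 0.824, limma). Its normalized groups overlapped. Themis2 gave 15.1, 28.7 and 36.6 in the controls and 28.2, 33.9 and 76.6 in the Klf4-deficient arrays, with array 3 the highest. Grb2 differed by -0.16 ± 0.12, and Fyb2 never rose above background.

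Skap2, the relative of Skap1 in myeloid cells, named after its values were seen, gave 738, 764 and 669 in the controls and 570, 855 and 1405 in the Klf4-deficient arrays. Pram1, a myeloid relative of Fyb named in the same way, gave 31.3, 30.7 and 23.3 in the controls and 18.2, 23.9 and 99.1 in the Klf4-deficient arrays. Among the Klf4-deficient arrays both were highest in array 3 and lowest in array 1. So were the medians of the monocyte and macrophage, neutrophil and erythroid markers, though not each marker. Mrc1 was highest in array 2, and Lyz2 was lowest in array 2.

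**Figure D4:**
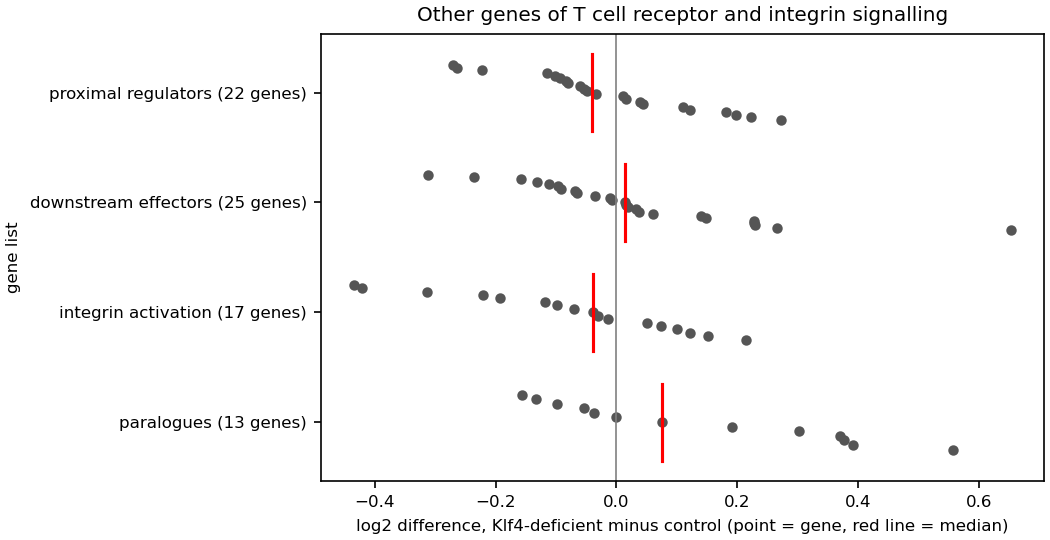
Log2 difference of each measured gene (horizontal axis, Klf4-deficient minus control; points are genes, red lines medians) in 4 lists of T cell receptor and integrin signalling (vertical axis). The medians lie between -0.04 and 0.08, and the highest point among the downstream effectors is Orai1 at 0.65.

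The probes most like Fyb probe 1 were sought over the 6 arrays, by the root mean square distance between log2 values centred on each probe's mean. Among 12834 probes above background on every array that carry another gene's symbol, the nearest were Irf9 (distance 0.10), Tsc22d3 (0.14), Cdkn1a (0.16), H2-K1 (0.16) and Mmp14 (0.17). The other Fyb probe lay at 0.17 and would have ranked 5. Irf9, a transcription factor of the type I interferon response, gave 374, 283 and 365 in the controls and 531, 550 and 493 in the Klf4-deficient arrays. Tsc22d3, the glucocorticoid-induced leucine zipper, gave 776, 666 and 826 in the controls and 1110, 1310 and 973 in the Klf4-deficient arrays. As for Fyb probe 1, control array 2 was the lowest of the 6 for both. Their differences, 0.72 ± 0.09 and 0.68 ± 0.08 (SE), are a description, since the measure selects probes with the pattern of Fyb.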

How the data were processed

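The authors deposited the linear intensity of every probe on 6 Illumina arrays, and the submitters' processing notes name BeadStudio. On each array 31.3% to 34.2% of the values are negative, and array medians lie between 8.1 and 9.2. How background was subtracted and whether arrays were normalized to each other is not given in the sources used here. Of 45281 probes, 34885 carry 1 symbol, 18 several and 10378 none here.

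Values under 0 were set to 0, an offset of 16 was added, and log2 values were quantile normalized. Differences and SE come from limma 3.58.1 in R 4.3.3 (lmFit, eBayes with a variance trend) on every probe, with Benjamini-Hochberg adjustment over all of them and a threshold of 0.05. The code was tested on simulated data. The background limit, 3 times the SD from mirrored negative values, lay between 21.9 and 23.7. Between 17152 and 17446 probes passed it on an array. The mean signal was 359.5 on Klf4-deficient array 3 and 417.3 to 445.1 on the others. The smallest p of an exact permutation test here is 0.10, so none was used.

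The brightest probe stood for a gene in lists. The members and lists were chosen with earlier results of these data known. Named were all member probes, up to 4 genes per list with the smallest unadjusted p, lineage-defining markers and the 5 probes nearest to Fyb probe 1; others are marked. Same-numbered arrays were not taken as pairs. Alternatives were other offsets, other normalizations, no variance trend, brighter probes, 1 probe per gene, mean of probes, a replicate block and leaving out each array.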

Additional observations from a re-analysis of the deposited data

How the results depend on the processing

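Over 14 alternatives, 12 of the 18 probes of the 8 measured genes above background kept the sign of their difference, and 6 did not (Grap2 probe 2, Lcp2 probe 2, Themis probe 1, Vav1 and Zap70 probes 1 and 2). No probe of the 8 measured genes passed the adjusted threshold in any of 15 alternatives. With no normalization between arrays the median of all probes above background moved from -0.02 to -0.11, so small differences depend on the scaling.

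Over all probes 1 was called higher and 1 lower. An offset of 1 gave 2 higher, no variance trend 2 higher, median centring 0 higher and 0 lower, cyclic loess 0 lower, brighter probes alone 0 lower, and 1 probe per gene 2 higher and 0 lower. Leaving out control replicate 1, 2 or 3 gave 1, 3 and 3 higher with 21, 26 and 42 lower. Leaving out Klf4-deficient replicate 1, 2 or 3 gave 45, 34 and 31 higher with 4, 1 and 1 lower. With the replicate number as a block 0 were higher and 0 lower. Same-numbered arrays share only a number: the correlation of their deviations was 0.16, -0.03 and -0.18, over 0.1 in 1 of 3 pairs.

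The median of the proximal regulators was -0.082 with median centring, -0.009 with cyclic loess, -0.107 with no normalization, 0.016 with brighter probes alone and 0.014 with probes averaged per gene. That of the downstream effectors was -0.077 with median centring and -0.103 with no normalization. Leaving out 1 array gave -0.046 (without control array 1) to 0.026 (without control array 3), and -0.034 without Klf4-deficient array 3. That of the integrin genes was -0.113 with median centring and -0.138 with no normalization. Leaving out 1 array gave -0.099 (without control array 3) to -0.035 (without control array 2), and the values without Klf4-deficient arrays 1 or 2 were -0.087 and -0.072. The cause of these shifts was not tested. Signals near the background limit, such as Skap1 probe 3 and Cd8a, limit what can be read.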
